A study of Homo sapiens with 6 samples.

Results

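Interferon response and antigen processing genes were followed in HCT116, an established human colon carcinoma cell line, after transfection of a miR-224 precursor. The set holds 49 genes chosen by name for their known roles, of which 48 had at least 1 probe set annotated with that gene alone, among 19775 such genes in all. STAT2 was not analysed here. Where a gene had several probe sets, the brightest by its mean over all arrays stood for it. The miR-224 cells were HCT116 cells that received miR-224 precursor molecules at 50 nM, and the control cells were HCT116 cells that received control oligos at the same dose. Total RNA was taken 24 h after transfection from 3 independent experiments, each with 1 miR-224 and 1 control culture, and each sample was read on a single array. Experiment was therefore kept as a block in every test unless stated. Both groups were transfected with small RNA, and cells without transfection were not analysed here, so the comparison shows what the miR-224 precursor did relative to control oligos and not what transfection itself did.

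Cells sense double-stranded RNA through helicases such as MDA5 (IFIH1), and the resulting type I and type III interferons signal through JAK kinases to a complex of STAT proteins and IRF9. This complex binds an interferon-stimulated response element in the promoters of many genes, whose products degrade viral RNA, block translation or tag proteins with ISG15. Interferon gamma acts through STAT proteins at the GAS element and, with IRF1, raises the immunoproteasome subunits, the TAP peptide transporter and MHC class I molecules, which carry peptides to the surface of epithelial cells. Many of these genes are kept low in cells that have met no interferon, and a few, such as B2M, are expressed in most cells.

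The mature strands of miR-224, the agent given to the miR-224 cells, are shown with the seed, bases 2 to 8, in capitals. They are RefSeq sequences of GRCh38.p14, chromosome X, minus strand. Which strand the precursor delivered most was not measured, and matches to either seed in transcripts were not analysed here.
hsa-miR-224-5p: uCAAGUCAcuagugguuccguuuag
hsa-miR-224-3p: aAAAUGGUgcccuagugacuaca

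Promoter windows of 5 members are shown because 4 of them form head-to-head pairs whose values are given together below, and the window of ISG15, a member with a bright probe set, stands beside them. Each window runs from 250 bases before to 50 bases after the start of the gene in RefSeq (GRCh38.p14), 5′ to 3′ on the gene's own strand. Capitals mark the core of the interferon-stimulated response element, searched as TTTCNNTTTC or GAAANNGAAA on both strands. The GAS element, searched as TTCNNNGAA, which reads the same on both strands, had no match in these 5 windows.
PARP9, chr3:122564251-122564550, minus strand: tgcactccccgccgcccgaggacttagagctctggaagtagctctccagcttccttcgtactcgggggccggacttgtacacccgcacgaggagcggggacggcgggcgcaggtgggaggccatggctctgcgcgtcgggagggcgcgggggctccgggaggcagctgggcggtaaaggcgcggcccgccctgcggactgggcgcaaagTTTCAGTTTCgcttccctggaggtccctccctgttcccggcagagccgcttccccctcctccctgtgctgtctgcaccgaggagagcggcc
DTX3L, chr3:122564088-122564387, plus strand: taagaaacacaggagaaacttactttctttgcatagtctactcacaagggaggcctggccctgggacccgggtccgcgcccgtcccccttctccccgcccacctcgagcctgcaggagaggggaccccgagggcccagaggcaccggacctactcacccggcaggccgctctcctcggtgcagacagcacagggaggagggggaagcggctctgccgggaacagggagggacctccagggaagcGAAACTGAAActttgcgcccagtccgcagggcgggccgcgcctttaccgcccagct
PSMB9, chr6:32853942-32854241, plus strand: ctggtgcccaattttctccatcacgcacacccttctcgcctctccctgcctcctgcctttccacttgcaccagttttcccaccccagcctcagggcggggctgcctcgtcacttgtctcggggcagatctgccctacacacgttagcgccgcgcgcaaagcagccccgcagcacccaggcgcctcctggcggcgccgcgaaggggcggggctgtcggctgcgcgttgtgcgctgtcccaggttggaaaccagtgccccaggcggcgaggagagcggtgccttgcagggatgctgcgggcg
TAP1, chr6:32853655-32853954, minus strand: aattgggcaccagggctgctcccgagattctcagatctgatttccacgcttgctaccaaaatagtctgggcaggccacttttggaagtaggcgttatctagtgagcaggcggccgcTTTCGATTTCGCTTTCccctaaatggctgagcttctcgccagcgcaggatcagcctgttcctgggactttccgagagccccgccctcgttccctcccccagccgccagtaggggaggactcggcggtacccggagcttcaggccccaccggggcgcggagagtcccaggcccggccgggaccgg
ISG15, chr1:1013247-1013546, plus strand: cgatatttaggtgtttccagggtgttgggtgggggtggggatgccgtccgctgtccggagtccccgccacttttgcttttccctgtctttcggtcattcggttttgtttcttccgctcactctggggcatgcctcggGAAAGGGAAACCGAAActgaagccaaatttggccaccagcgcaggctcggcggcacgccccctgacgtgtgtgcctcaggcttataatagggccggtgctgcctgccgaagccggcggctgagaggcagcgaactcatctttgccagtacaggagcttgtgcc
PARP9 and DTX3L start 36 bases apart on opposite strands, and a single copy of the core (TTTCAGTTTC on the PARP9 strand) lies in the 137 bases that their windows share. TAP1 and PSMB9 start 486 bases apart on opposite strands. The TAP1 window held 2 overlapping copies, beginning 134 and 128 bases before its start, and the PSMB9 window held none. The ISG15 window also held 2 overlapping copies, beginning 113 and 107 bases before the start. A further head-to-head pair, CMPK2 and RSAD2 on chromosome 2, starts 64 or 24 bases apart, depending on the CMPK2 start used. Both genes were dim and their windows are not printed. The overlapping windows held 0 copies of the core, and a second RSAD2 window, at another start, held 1.

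Windows were listed for 39 of the 48 measured members, and 30 of these genes (76.9%) held the core in at least 1 window, against 4.38% of the 27305 genes with a window of the same length. The GAS core was found in 11 of the 39 (28.2%), against 9.38% of all. The set was assembled from known interferon targets, so these shares describe the choice of genes. By direction in the arrays, windows were listed for 8 of the 12 members that were lower in miR-224 cells in every experiment. They were listed for 7 of the 7 that were higher in every experiment and for 24 of the 29 of mixed sign. The core was found in 8, 4 and 18 of these genes, in that order. Among the 8, PARP9 and DTX3L share a single copy, and RSAD2 counts only through its second window. Whether the core goes with direction was not tested. A match is a description of letters, and binding was not measured.

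Before the values are given, a property of the arrays has to be stated. Control probe sets for the 5′ end of actin averaged 4.28 in experiment 1 and 12.4 in experiments 2 and 3, whereas those for its 3′ end averaged 12.5 in both. The same held for GAPDH, with 4.10 and 13.0 at the 5′ end and 12.8 and 13.0 at the 3′ end. Both the miR-224 and the control array of experiment 1 read this way. Levels of many genes also differed between experiments, and for many but not all members the difference without experiment 1 is given as well. Of 10 colon epithelium markers, 7 were at or above the median of all genes (4.75), as were 9888 of 19775 genes. Those 7 markers included EPCAM and the keratins KRT8 and KRT18, whereas KRT20, VIL1 and LGALS4 were below the median. Of 8 leukocyte markers measured, 0 were at or above that median, and of 10 fibroblast and endothelial markers, 2 were (COL1A1 and ACTA2). In bulk samples such as these, fewer cells that express a gene and less RNA per cell cannot be told apart.

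No interferon response or antigen processing gene passed the test between miR-224 and control cells. Of 48 members, 0 passed (limma with experiment as a block, adjusted p from 0.242 to 0.999 over all 19775 genes), and over all genes 0% were called. Differences were small: 35 of 48 members lay within 0.2 of 0 on the log2 scale. PARP9 and PSMB9 alone exceeded 0.5 in size, 2 of 48 members against 292 of 19775 genes. The median log2 difference was -0.04, compared with 0.01 over all genes, and the median absolute difference was 0.10 for the members and for all genes. The half-width of the 95% interval of a member's difference had a median of 0.25, and the intervals of 47 members lay wholly between -1 and 1, that is within a doubling or halving. The highest upper limit was 0.66, for PSMB8, and the lowest lower limit was -1.04, for PSMB9.

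The sign of the small differences leaned downward. A lower mean in miR-224 cells was found in 29 of 48 members (60.4%), against 46.8% of all genes. Among bright probe sets, those at or above the median of all genes, the share was close to the background, with 14 of 25 members lower (56.0%) against 52.5% of all such genes. Among dimmer ones it was 15 of 23 (65.2%), against 41.2%. Of all 48 members, 12 were lower in every experiment (25.0%, against 14.4% of all genes) and 7 were higher in every experiment (14.6%, against 18.3%). An unadjusted p under 0.05 was reached by 8 members, 16.7% against 11.0% of all genes, and 7 of the 8 were lower, 14.6% against 5.52%. These were PARP9, PSMB9, IFIT5, IRF7, MX2, SAMD9 and DDX60, with PSMB8 the higher exception. Without the block, PSMB9 alone had an unadjusted p under 0.05 (2.08% of members, against 1.58% of all genes), and 0 members passed after adjustment (0% of all genes). The lean was uneven: the median difference was 0.03 in experiment 1, -0.03 in experiment 2 and -0.12 in experiment 3, and 20, 28 and 32 members were lower there, in that order. Members are not replicates of a condition, and no test was made over them. Only IRF7 had all miR-224 arrays below all control arrays (1 of 48, or 2.08%, against 2.11% of all genes), and 0 members had them all above (against 4.16%).

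Leaving out experiment 1 changed the size of many differences. The mean difference grew by over 1.5 times in 15 members, shrank by as much in 8 and changed sign in 8, and it stayed within 1.5 times in 17. Over all 19775 genes the counts, in the same order, were 5841, 2926, 3051 and 7957. The members that changed sign had no difference over 0.17 in size with or without experiment 1. Of the 48, 31 were then lower (64.6%, against 46.9% of all genes). A size of 0.5 was exceeded by 4 (PSMB9, PARP9, IFIT5 and IFIT2), against 641 of 19775 genes.

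**Figure D1:**
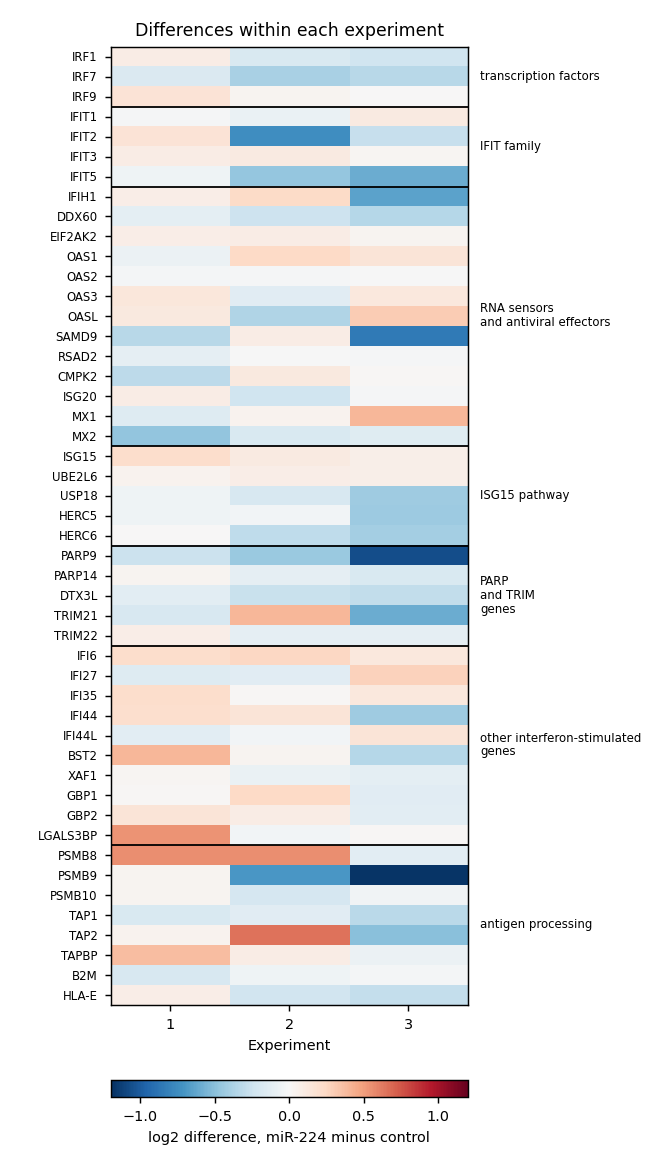
Log2 difference, miR-224 minus control, of the 48 measured members (rows, grouped by role) in each experiment (columns); blue is lower and red higher in miR-224 cells. PARP9 and PSMB9 show the deepest blue in experiment 3, at -1.06 and -1.17, and most rows are pale or change colour between columns.

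The transcription factors that switch the response on were represented by IRF7, IRF9 and IRF1. IRF7, the factor that amplifies type I interferon production, read 4.94, 4.76 and 4.65 in the miR-224 cells of experiments 1, 2 and 3, against 5.11, 5.15 and 4.99 in the control cells. Every miR-224 value was below every control value, on a probe set close to the median of all genes. The difference was -0.30 ± 0.11 (SE, limma with the block, adjusted p = 0.352), and -0.36 without experiment 1. IRF9, the DNA-binding partner of STAT proteins, read 6.33, 6.52 and 6.39 in miR-224 cells, against 6.16, 6.49 and 6.38 in control cells. The groups overlapped, and the difference was 0.07 ± 0.10, or 0.02 without experiment 1. IRF1, which acts downstream of interferon gamma, read 6.11, 5.93 and 6.34 in miR-224 cells, against 6.02, 6.11 and 6.57 in control cells. It was higher in experiment 1 and lower in the others, with a mean difference of -0.11 ± 0.11, or -0.21 without experiment 1.

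The IFIT genes encode RNA-binding proteins that hold back translation of viral RNA. IFIT5 was the bright member of the family and read 7.34, 6.15 and 6.004 in miR-224 cells, against 7.39, 6.62 and 6.60 in control cells. It was lower in every experiment, by -0.05, -0.47 and -0.59, yet the groups overlapped, and both arrays of experiment 1 were above the rest. The difference was -0.37 ± 0.13 (adjusted p = 0.344), and -0.53 without experiment 1. A second IFIT5 probe set, also above the median of all genes, stood at 0.17, 0.15 and -0.26, with a mean of 0.02, so the probe sets of this gene disagreed. IFIT1, IFIT2 and IFIT3 were dim. IFIT1, among the most strongly inducible genes of the response, lay between 3.58 and 3.80 on all arrays, and its difference of 0.01 had a 95% interval from -0.23 to 0.24. IFIT3 stood at 0.07 and IFIT2 at -0.29 ± 0.16 (-0.51 without experiment 1), and neither passed. The other IFIT2 probe set, dimmer still, was lower in every experiment, at -0.18, -0.45 and -0.84, with a mean of -0.49. The other IFIT3 probe set, also dimmer, was lower in every experiment with a mean of -0.14, against the sign of the one used.

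Among the RNA sensors and antiviral effectors, 8 of 13 had a lower mean in miR-224 cells, with a median difference of -0.04. EIF2AK2, which encodes the kinase PKR that stops translation on binding double-stranded RNA, was higher by 0.08, 0.09 and 0.04 in experiments 1, 2 and 3. Its mean difference was 0.07 ± 0.10, but that probe set carries the suffix for probes that may bind other transcripts, and a second bright one stood at 0.36, -0.22 and -0.48. OAS3, of the family that makes a messenger for RNA decay, read 7.27, 6.41 and 6.32 in miR-224 cells, against 7.13, 6.55 and 6.20 in control cells. The difference was 0.04 ± 0.11, or -0.007 without experiment 1, far smaller than the gap of 0.83 between experiment 1 and the others. OASL, a relative without that enzyme activity, read 4.77, 5.07 and 5.51 in miR-224 cells, against 4.65, 5.43 and 5.21 in control cells, and its sign changed between experiments (0.02 ± 0.14, or -0.03 without experiment 1). The other OASL probe set, just below the median of all genes, was lower in every experiment, with a mean of -0.28.

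The other 10 sensors and effectors were below the median of all genes. IFIH1, the sensor MDA5, stood at 0.08, 0.23 and -0.64 in experiments 1, 2 and 3, so no direction held. DDX60, a helicase linked to RNA sensing, was lower by -0.12, -0.25 and -0.35, with a mean of -0.24 ± 0.11 (adjusted p = 0.455). The dynamin-like GTPases differed in sign, with MX2 at -0.27 ± 0.11 and lower in every experiment, and MX1 at 0.09 ± 0.13. Without experiment 1 they stood at -0.16 and 0.22. SAMD9, which restricts poxviruses, was lower in experiments 1 and 3 (-0.33 and -0.85) and slightly higher in experiment 2 (0.09), and its other probe set stood at -0.29, -0.06 and -0.71. OAS1 stood at 0.11, OAS2 at -0.01, ISG20, an exonuclease, at -0.05, RSAD2, which encodes viperin, at -0.04 and CMPK2, its neighbour on chromosome 2, at -0.06. MX2, SAMD9, DDX60, PSMB8 and PSMB9 are the dim members with an unadjusted p under 0.05 (limma with the block). Their values are given in detail, a choice made after the values were seen.

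**Figure D2:**
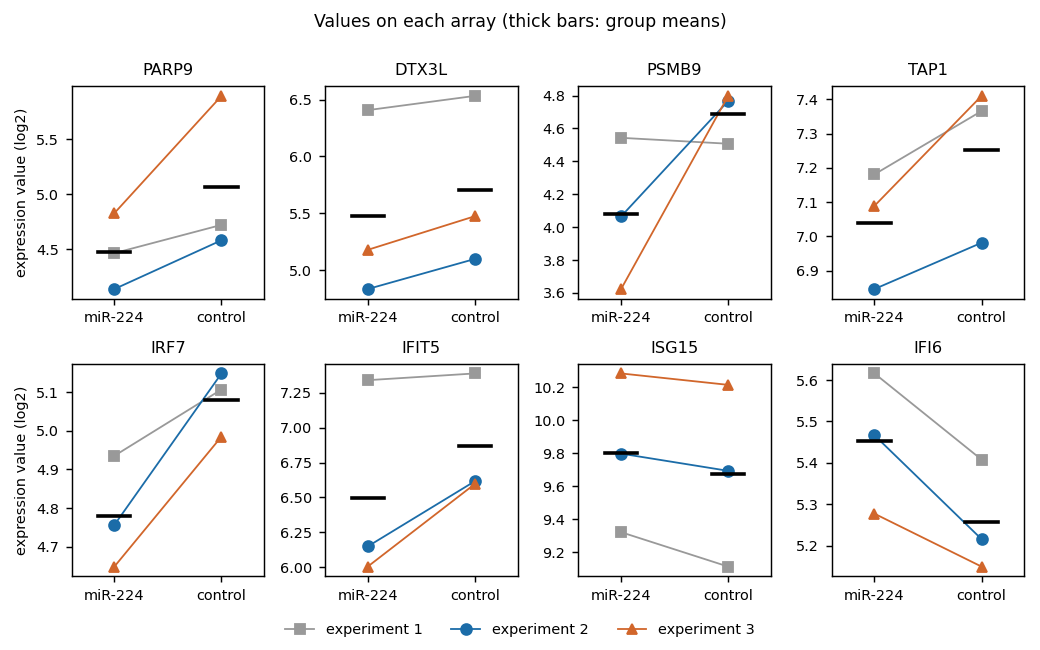
Log2 expression values on each array for 8 members, with miR-224 at the left and control at the right of each panel; lines join arrays of the same experiment and thick bars are group means (n = 3 each). In every panel but that of PSMB9, the lines slope the same way in all 3 experiments. The miR-224 end is lower for PARP9, DTX3L, TAP1, IRF7 and IFIT5 and higher for ISG15 and IFI6. PSMB9 is flat in experiment 1. The spacing between lines exceeds the slope for DTX3L and ISG15, and for IFIT5 the line of experiment 1 stands apart from the others.

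The ISG15 pathway tags proteins with ISG15, a ubiquitin-like modifier. ISG15 itself had a bright probe set and read 9.32, 9.80 and 10.28 in miR-224 cells, against 9.11, 9.69 and 10.21 in control cells. It was higher in every experiment, by 0.21, 0.10 and 0.07, and its mean difference was 0.13 ± 0.10 with a 95% interval from -0.11 to 0.36 (adjusted p = 0.714). Its promoter window, shown above, holds 2 response element cores, and the interval of its difference included 0. UBE2L6, the conjugating enzyme, read 6.41, 6.29 and 6.35 in miR-224 cells, against 6.37, 6.21 and 6.28 in control cells, a difference of 0.07 ± 0.10 that was alike in every experiment. The ligase gene HERC5 and its relative HERC6, and the protease gene USP18, which removes ISG15 and dampens the type I interferon receptor, had lower means. USP18 read 5.60, 4.97 and 4.87 in miR-224 cells, against 5.65, 5.16 and 5.29 in control cells. HERC5 read 5.80, 5.49 and 5.10 in miR-224 cells, against 5.86, 5.52 and 5.54 in control cells. HERC6 read 5.36, 4.32 and 4.56 in miR-224 cells, against 5.35, 4.62 and 4.96 in control cells. The mean differences were -0.22 ± 0.11 for USP18, -0.18 ± 0.12 for HERC5 and -0.24 ± 0.12 for HERC6, each furthest from 0 in experiment 3, and none passed (adjusted p from 0.509 to 0.649). Without experiment 1, HERC6 stood at -0.36.

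PARP9 and DTX3L, which encode an ADP-ribosyltransferase and the ubiquitin ligase it binds, were both lower in miR-224 cells in every experiment. PARP9 had the smallest p of the set and read 4.46, 4.14 and 4.83 in miR-224 cells, against 4.72, 4.58 and 5.89 in control cells. The highest miR-224 value exceeded the lowest control values, and the differences were unequal, at -0.26, -0.44 and -1.06. The mean was -0.59 ± 0.15 (adjusted p = 0.242), or -0.75 without experiment 1. The other PARP9 probe set was dimmer and stood at 0.27, 0.31 and -0.53, so the direction was not shared. DTX3L read 6.41, 4.84 and 5.18 in miR-224 cells, against 6.53, 5.10 and 5.47 in control cells. Its differences of -0.13, -0.26 and -0.30 were smaller and more alike, with a mean of -0.23 ± 0.10 (adjusted p = 0.470). Without the block the SE was 0.52, and experiment 1 stood 1.32 above the others for this gene.

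PARP14, a related ADP-ribosyltransferase that lies near them on chromosome 3, read 5.48, 5.20 and 5.37 in miR-224 cells, against 5.45, 5.31 and 5.55 in control cells. The groups overlapped, and it differed by -0.08 ± 0.11, or by -0.14 without experiment 1. TRIM21, an antibody receptor in the cytosol and a ubiquitin ligase, read 5.11, 5.05 and 4.47 in miR-224 cells, against 5.31, 4.66 and 5.07 in control cells, and changed sign between experiments 2 and 3 (0.40 and -0.60). TRIM22 was dim and stood at -0.05. All 5 genes of this group had a lower mean, though 2 of them (PARP9 and DTX3L) were lower in every experiment.

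Antigen processing begins with the proteasome, whose catalytic subunits PSMB5, PSMB6 and PSMB7 are replaced by PSMB8, PSMB9 and PSMB10 in the immunoproteasome. PSMB9 read 4.54, 4.07 and 3.62 in miR-224 cells, against 4.51, 4.77 and 4.80 in control cells. The 2 lowest values were the miR-224 arrays of experiments 2 and 3, while in experiment 1 the pair was level, and the groups overlapped. The differences of 0.04, -0.70 and -1.17 averaged -0.61 ± 0.19 (adjusted p = 0.301). With experiments 2 and 3 alone, PSMB9 fell by 0.94 on the log2 scale (limma with the block, adjusted p = 0.0216) and was the only member called there (2.08%, against 0.880% of all genes). That fit has 1 residual degree of freedom, its probe set is dim, and whether experiment 1 differs from the others was not tested.

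The other immunoproteasome subunits did not pass either. PSMB8 was dim and stood at 0.56, 0.56 and -0.12 in experiments 1, 2 and 3, a mean of 0.33 ± 0.15 (adjusted p = 0.452), or 0.22 without experiment 1. PSMB10 read 7.43, 6.76 and 6.98 in miR-224 cells, against 7.39, 6.97 and 7.02 in control cells, a difference of -0.07 ± 0.11, or -0.12 without experiment 1. Of the constitutive subunits, PSMB5 stood at 0.53, 0.46 and 0.03, with a mean of 0.34 ± 0.12 (adjusted p = 0.363), whereas PSMB6 and PSMB7 stood at -0.003 and 0.07.

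TAP1, a subunit of the transporter that carries peptides into the endoplasmic reticulum, read 7.18, 6.85 and 7.09 in miR-224 cells, against 7.37, 6.98 and 7.41 in control cells. It was lower by similar amounts in every experiment (-0.18, -0.14 and -0.32), with a mean of -0.21 ± 0.10 (adjusted p = 0.502). Its head-to-head neighbour PSMB9 was also lower on average, but not in experiment 1. TAP2, the partner subunit, read 7.38, 6.52 and 6.22 in miR-224 cells, against 7.33, 5.87 and 6.73 in control cells, and its differences of 0.04, 0.65 and -0.51 gave no direction. Another bright TAP2 probe set was of mixed sign as well. Of the dim ones, 1 was higher in every experiment, with a mean of 0.23, and 1 was lower in every experiment, with a mean of -0.05. TAPBP, which encodes tapasin and bridges the transporter to MHC class I, read 7.66, 7.92 and 7.85 in miR-224 cells, against 7.29, 7.84 and 7.92 in control cells, a difference of 0.13 ± 0.12, or 0.01 without experiment 1. A second bright TAPBP probe set was higher in every experiment, at 0.41, 0.21 and 0.18, with a mean of 0.27.

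The MHC class I molecules themselves were bright, and their groups overlapped. B2M, the light chain, read 10.78, 11.01 and 11.24 in miR-224 cells, against 10.97, 11.06 and 11.26 in control cells, and its difference of -0.09 had a 95% interval from -0.32 to 0.15. Without experiment 1 the B2M difference was -0.04. A second bright B2M probe set gave a mean of -0.08. HLA-E, a class I molecule read by natural killer cells, read 8.38, 8.79 and 8.65 in miR-224 cells, against 8.30, 9.03 and 8.93 in control cells. The difference was -0.15 ± 0.11, on a probe set that may also bind other HLA transcripts, and -0.09 on the HLA-E probe set without that suffix. Without experiment 1 the HLA-E difference was -0.26. Similar probe sets of HLA-B, HLA-F and HLA-G stood at -0.30, -0.20 and -0.34, and none of these passed (adjusted p from 0.283 to 0.714).

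The remaining interferon-stimulated genes had a median difference of 0.03, with 4 of 10 lower, and a median absolute difference of 0.04. IFI6, which protects cells from apoptosis, read 5.62, 5.47 and 5.28 in miR-224 cells, against 5.41, 5.22 and 5.15 in control cells. It was higher in every experiment, by 0.21, 0.25 and 0.13, with a mean of 0.20 ± 0.10 (adjusted p = 0.531). IFI35, a cytosolic protein of the response, read 5.64, 5.77 and 5.74 in miR-224 cells, against 5.43, 5.76 and 5.62 in control cells, and was higher by 0.12 ± 0.11, or by 0.07 without experiment 1. LGALS3BP, a secreted glycoprotein that binds galectins, read 9.40, 9.77 and 10.05 in miR-224 cells, against 8.87, 9.80 and 10.04 in control cells, and its mean of 0.17 was -0.01 without experiment 1. The dim genes IFI27, IFI44, IFI44L, BST2, XAF1, GBP1 and GBP2 lay between -0.06 and 0.04, and their other probe sets were dim as well. The other GBP2 probe set was lower in every experiment with a mean of -0.19, against the sign of the one used. Among these dim genes, IFI44L, often used as a marker of exposure to interferon, lay between 2.00 and 2.26 and was low on every array.

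**Figure D3:**
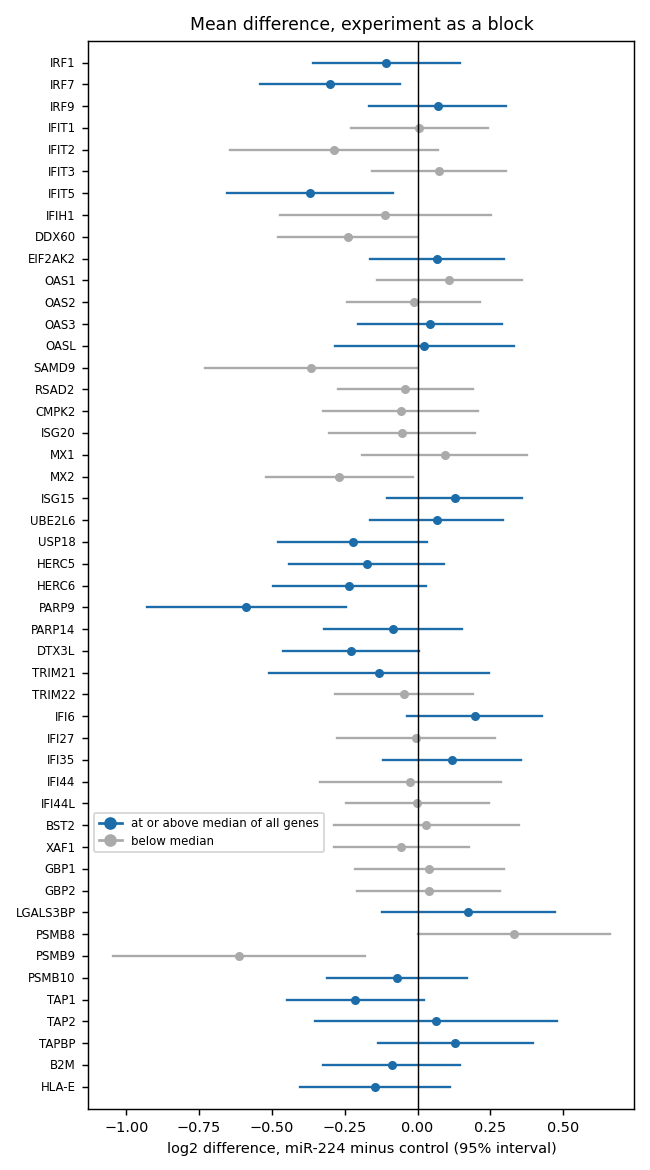
Mean log2 difference, miR-224 minus control, with its 95% interval from limma with experiment as a block, for the 48 measured members in the order of their roles; blue marks probe sets at or above the median of all genes and grey those below. Intervals of 8 members leave out 0 before adjustment, and 0 members pass after it.

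For most members, as for most genes, differences between experiments were larger than those between treatments. For 34 of 48 members the gap between experiment 1 and the mean of experiments 2 and 3 was larger in size than the difference between miR-224 and control, as it was for 14318 of 19775 genes. The median size of that gap was 0.41 among the 25 members at or above the median of all genes and 0.08 among the 23 dimmer ones. Over all genes it was 0.44 at or above that median and 0.13 below it. Among the members the gap ran in both directions, at 1.32 for DTX3L, 1.28 for CMPK2, 1.02 for IFIT5 and 1.02 for TAP2, but -0.78 for ISG15 and for LGALS3BP. Probe sets of the same gene did not always share it. TAP2 stood 1.02 higher in experiment 1 on the probe set used and -1.97 on another bright one, and TAPBP stood at -0.41 and -1.72. The part of the 5′ signal in these gaps was not tested.

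**Figure D4:**
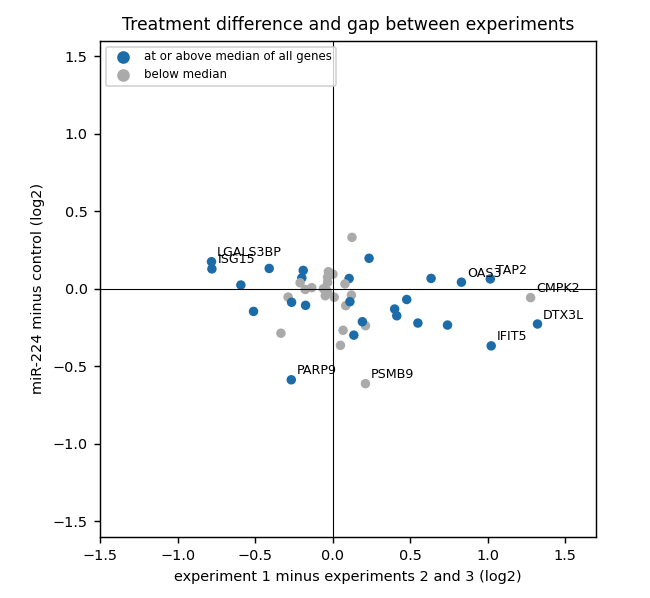
Each point is a member; the horizontal axis is its level in experiment 1 minus the mean of experiments 2 and 3, and the vertical axis is miR-224 minus control, both in log2 units on the same scale. The points spread from -0.78 to 1.32 across and from -0.61 to 0.33 up and down.

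Differences of the members were only loosely alike between experiments. Across the 48 members, which are not independent replicates, the differences correlated at 0.22 between experiments 1 and 2, 0.20 between experiments 1 and 3 and 0.25 between experiments 2 and 3. Across all genes these values were 0.21, 0.10 and 0.31. The experiments share no arrays.

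Genes around the response were examined in further lists. Of 19 interferon, receptor and JAK-STAT genes measured, 8 were lower and 0 passed. The interferon genes themselves were dim, and IFNB1 and IFNA1 averaged 2.90 and 1.91 over the 6 arrays. IFNGR1, the ligand-binding chain of the interferon gamma receptor, was lower in every experiment, at -0.29, -0.34 and -0.67, with a mean of -0.44 ± 0.12 (adjusted p = 0.252). IL10RB, a chain shared by the receptors for interleukin 10 and type III interferon, was higher by 0.53 ± 0.16, and SOCS3, an inhibitor of cytokine signalling, by 0.47 ± 0.13 (adjusted p = 0.289 and 0.258). IFNL1, a type III interferon, was dim and stood at 0.25.

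Of 14 genes of RNA sensing upstream of interferon, 11 were lower, with a median of -0.12, and 0 passed. SIKE1, a suppressor of the kinases that activate IRF3, stood at -0.31, -1.53 and -1.58, and ADAR, which edits double-stranded RNA, at -0.09, -0.74 and -0.30. Their means were -1.14 ± 0.22 for SIKE1 and -0.38 ± 0.13 for ADAR (adjusted p = 0.157 and 0.352). SIKE1 fell when an intensity trend and robust variances were used (adjusted p = 0.0286), a setting that called 0.283% of all genes and 0 members. With experiments 2 and 3 alone, SIKE1 fell by 1.56 on the log2 scale (limma with the block, adjusted p = 0.00058). ADAR stood at -0.52 there and did not pass. TRAF3 stood at -0.19 and DHX58, a helicase that regulates sensing, at 0.22.

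Among 31 interferon-stimulated genes that are not members, 16 were lower, the median was -0.009 and 0 passed. SP100, a component of nuclear bodies, was lower by -0.22, -0.54 and -0.63, and TRIM5, which restricts retroviruses, by -0.38, -0.28 and -0.37, with adjusted p of 0.241 and 0.282. PARP12 stood at 0.03, -0.28 and -1.03, and APOL1 was higher by 0.27 ± 0.11. Of 17 other antigen presentation genes, 9 were lower, the median was -0.02 and 0 passed. CIITA, the activator of MHC class II, was dim and stood at 0.19.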

How the data were processed

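The data are values of 6 Affymetrix arrays for 54675 probe sets. RMA and Partek are named per the submitters' processing notes, with versions and settings not given in the sources used here. The deposited values were read as log2: they lie between 1.47 and 13.6 with array medians of 3.41 to 3.53, but their base is not stated. RMA makes the distributions of arrays alike, so a shift shared by most genes cannot be seen.

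The array annotation supplied gene names: 41091 had 1 gene symbol and 1801 had several, and 62 control probe sets were left out. The comparison used limma 3.58.1 under R 4.3.3 with experiment as a block (moderated statistics, two-sided), and p-values were adjusted by Benjamini and Hochberg over 19775 genes at a threshold of 0.05. The block leaves 2 residual degrees of freedom. The series text describes pairs from independent experiments, and deviations from the group means correlated at 0.855, 0.585 and 0.771 between arrays of the same number and at -0.753 to 0.257 otherwise. The SE is that of the moderated fit, in which the variance of each gene is drawn toward a value shared by all genes. With the block, p-values set the mean difference against how much the differences within pairs vary between the 3 experiments, after that moderation. OAS2, with differences of -0.02, -0.01 and -0.003, still had an SE of 0.10, so a small SE is not the replicate spread alone. With 3 arrays in each group, their number limits the precision. Probe affinity differs, so levels were not ranked between genes. The fits were tested on simulated data. Plots were made in Python 3.11.15 (matplotlib 3.10.9).

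The members and lists were chosen with earlier results of these data known. Arrays were described in full for members at or above the median of all genes, and for dimmer ones with the same sign in every experiment and a difference of at least 0.3, of which there were 0. PSMB9 was added after its values were seen. From each list of pathway genes up to 4 with the smallest p were named. The alternatives were no block, each pair left out, other scaling, other summaries of probe sets, other variance settings and another threshold.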

Additional observations from a re-analysis of the deposited data

How the results depend on the processing

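The count of members called was 0 with experiment as a block and 0 with no replicate block, where 1 had an unadjusted p under 0.05 (PSMB9), against 8 with the block. With the pair of a single experiment left out, it ranged from 0 to 1, and the count over all genes from 0 to 174, with 174 and PSMB9 reached without experiment 1. An intensity trend and robust variances called 56 of all genes and 0 members, and a threshold of 0.1 called 4 and 0. The count was 0 for members and all genes for the brighter 9888 genes only, with quantile normalization again, with median centring, with probe sets averaged per gene, with probe sets chosen on experiments 2 and 3 and with every probe set tested. The number of lower members was 28 to 31 of 48 over the settings that keep every member, and their median difference -0.03 to -0.07. Single members were less settled: 8 of 48 changed sign when probe sets were averaged, and 8, 5 and 6 without experiments 1, 2 and 3, while 1 did so with median centring and 1 with quantile normalization. Low signal limits the 23 members below the median of all genes.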
